A study of Mus musculus with 8 samples.

Results

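The genes described here encode the TGF-beta and BMP signalling machinery: secreted ligands, their receptors and antagonists, the proteins that hold latent ligand, the Smad signal transducers with the Smurf ubiquitin ligases, and the Id target genes. They were chosen as a fixed list of 48 genes, each measured by probe sets whose platform annotation names that gene alone. Such probe sets existed for 47 of the 48, with 104 probe sets between them, out of 18193 genes measured in all. No probe set named Gdf15 alone, and it was not analysed here. Of the 47, 43 had a probe set with a mean log2 signal of at least 3.30, the median of all probe sets, and were tested.

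RNA came from lymphatic endothelial cells of the ear skin of female FVB mice aged 8 to 10 weeks, sorted by flow cytometry as cells that carry CD31 and podoplanin and lack the leukocyte protein CD45. Inflamed samples came from mice with contact hypersensitivity, an allergic skin reaction: the mice were sensitised with 2% oxazolone on abdomen and paws, received 10 µl of 1% oxazolone on each ear side 5 days later and their ears were taken 24 hours after that challenge. Untreated samples came from mice labelled healthy and untreated, and each group held 4 samples pooled from 3 mice each. Cell sorting and RNA extraction of 1 untreated and 1 inflamed sample shared a day, which makes them a pair, and there were 4 pairs.

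As background, ligands of this family bind a type II receptor, which activates a type I receptor, and the type I receptor phosphorylates Smad proteins that move to the nucleus. TGF-beta and activin receptors act mainly through Smad2 and Smad3, BMP receptors through Smad1, Smad5 and Smad9, and both use Smad4. In lymphatic endothelium, TGF-beta is known to restrain growth, and BMP signalling through the receptor encoded by Acvrl1 is known to shape vessels and valves.

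All values are log2 signals of the deposited intensities, so a difference of 1 is a doubling. A gene was called above background on an array when its signal passed the 95th percentile of 27 bacterial control probe sets on that array, which lay between 2.53 and 3.31. The mean linear signal of an array was 126.2 to 146.3 in untreated and 139.6 to 160.4 in inflamed samples, higher in 4 of 4 pairs. The median log2 signal was 3.56 to 3.74 in untreated and 3.27 to 3.44 in inflamed samples, lower in 4 of 4 pairs, and values were not centred on it. No detection calls were used. The lymphatic markers Prox1, Lyve1, Flt4, Pdpn and Pecam1 were above background on all 8 arrays, and Ptprc, which encodes CD45, was above it on 0 of 4 untreated and 3 of 4 inflamed arrays. The sorts also held RNA of other cell types: the fibroblast gene Col1a2 averaged 11.80 ± 0.68 in untreated and 12.04 ± 0.38 in the inflamed samples (SD, n = 4). In such bulk samples, fewer cells of a type and less RNA per cell cannot be told apart.

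Other RNA moved with the condition and so with every result given here. Summed over each list, the linear signal of 9 lymphatic markers was 24140 to 31858 in untreated and 14114 to 25034 in the inflamed samples and lower in 4 of 4 pairs, though nearly equal in pair 3, at 25054 and 25034. Reln, Mmrn1 and Nrp2 were called lower and 0 of the 9 higher. At an unadjusted p under 0.05 in limma, 6 were lower and 2 higher. Among the 6 was Prox1, with a difference of -1.44 (adjusted p = 0.0618). Prox1 was lower in 4 of 4 pairs, with -3.21 in pair 1. The 2 higher were Pdpn, with a difference of 0.56 and higher in 4 of 4 pairs, and Cdh5, with 0.50 and higher in 3 of 4 (adjusted p = 0.0605 and 0.181). The summed signal of 10 fibroblast markers was 4428 to 19657 and 10346 to 24445, higher in 4 of 4 pairs, with 1 of 9 tested called higher. For 10 neutrophil markers it was 204.4 to 643.9 and 1982 to 3275, higher in 4 of 4 pairs. S100a8, S100a9 and Lcn2 made up 94.7% to 98.9% of the sum in the inflamed samples. These 3 were the ones tested and were called higher, S100a8 and S100a9 having been kept by the filter only through their inflamed values. The other 7 were left out as dim, and Ltf was above background on no array. For 9 monocyte and macrophage markers it was 481.8 to 1314 and 932.9 to 2803, higher in 3 of 4 pairs, with 0 of 7 tested called and 3 at an unadjusted p under 0.05 in limma. The 6 pan-leukocyte markers summed to 139.9 to 665.1 and 1135 to 6223, with Cd53 called higher, and 7 blood endothelial markers to 1902 to 3136 and 2231 to 4021, with Car4 called higher, both higher in 4 of 4 pairs. Keratinocyte markers went the other way, at 758.3 to 2709 and 93.4 to 887.6 over 7 genes, lower in 3 of 4 pairs, with 3 of 5 tested called lower. So did 8 chondrocyte markers, at 2010 to 7749 and 1380 to 7422, lower in 4 of 4 pairs. Of the 7 tested, 6 had changes below 0 and 0 were called. Gapdh, whose 3' over 5' probe signal reflects RNA integrity, had a log2 ratio of 3.40 to 4.16 in untreated and 2.58 to 3.30 in the inflamed samples, lower in 4 of 4 pairs. The same ratio of Actb averaged -0.08 ± 0.06 and -0.07 ± 0.05 (SD, n = 4), higher in 2 of 4 pairs. The part of these differences in the results below was not tested.

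In inflamed skin, 5 of the 43 tested members were lower and 0 higher at an adjusted p under 0.05 in limma with the pair as a block. The 5 were the ligands Tgfb2, Tgfb3 and Gdf10, the type II receptor Tgfbr2 and the latent TGF-beta binding protein Ltbp4. That is 11.6% of the members, all lower, beside 6.94% of all 10843 tested genes called in either direction, 3.91% called higher and 3.02% called lower. At an unadjusted p under 0.05, 7 members were higher and 8 lower, together 34.9%, against 22% of all genes (10.5% higher and 11.5% lower). The median change of the members tested, inflamed minus untreated, was -0.28, and that of all tested genes was -0.09. Of these members, Inhba, Grem1 and Smad7 were kept by the filter only through the inflamed group and Acvr2b only through the untreated group. Inhba and Smad7 are among the 7 higher at an unadjusted p under 0.05, so that count and the 34.9% rest in part on the filter. The groups did not overlap for 11 members, or 25.6%, against 13.1% of all genes, with 3 of the 11 higher and 8 lower (all genes 6.3% and 6.84%). The list was chosen with earlier results of these data known, so these shares are not an independent comparison.

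The count of calls depended on the processing. Without an intensity trend in the variance model, 0 members passed (14 at an unadjusted p under 0.05). After median centring, 3 were higher (Bmp2, Inhba and Bmper) and 3 lower (Gdf10, Tgfb3 and Tgfbr2), while the median change of all genes moved to 0.22 and that of the members to 0.03. Under quantile and cyclic loess normalization the median change of all genes was -0.02 and 4.5e-05. Both kept the same 5 members lower and added Smad1, and cyclic loess also called Bmper and Inhba higher. The part of the array medians, lower in each inflamed sample, in these calls was not tested. Leaving out a pair left 3, 1, 3 and 4 members lower for pairs 1 to 4, with 1 higher without pair 1 and without pair 4.

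**Figure D1:**
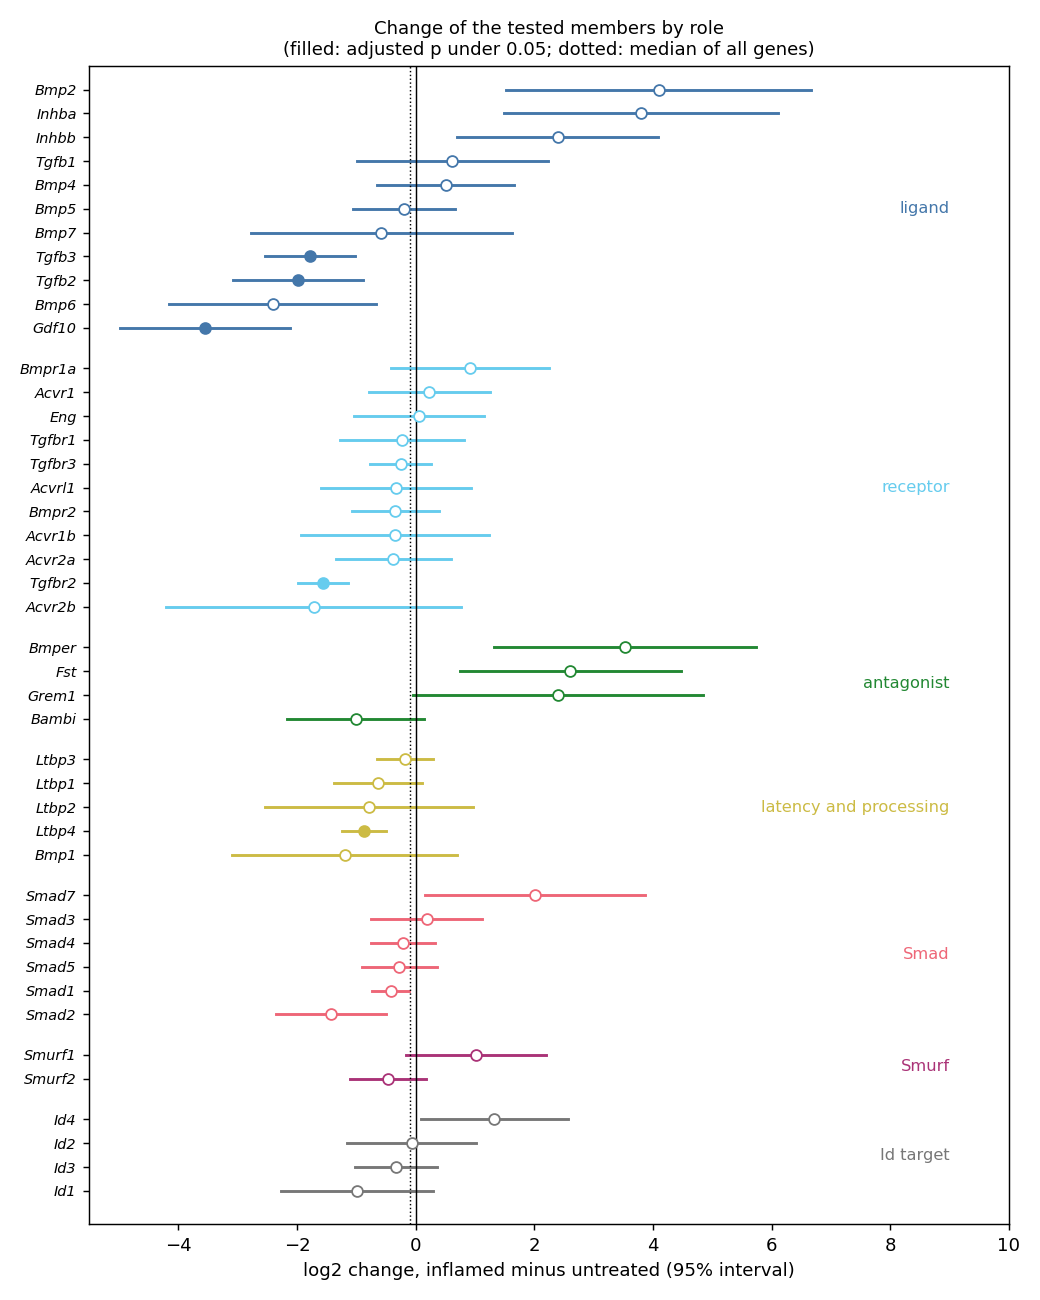
Log2 change of the 43 tested members, inflamed minus untreated, by role, with 95% intervals from the limma fit as lines (n = 4 pairs). Filled points mark the 5 members at an adjusted p under 0.05, all left of 0. The dotted line is the median of all genes, -0.09.

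Among the 11 tested ligands, 3 were lower and 0 higher in limma, beside 6.94% of all genes called. At an unadjusted p under 0.05, 3 ligands were higher and 4 lower, beside 22% of all genes. The 3 higher include Inhba, kept by the filter only through its inflamed values. Gdf10 encodes a BMP3-like ligand. Its log2 signal was 8.17, 8.66, 7.89 and 8.75 in untreated samples 1 to 4 and 4.15, 3.58, 6.13 and 5.43 in the inflamed samples 1 to 4. Every inflamed sample lay below every untreated one and was still above background, and Gdf10 fell by 3.55 ± 0.64 (SE; 11.7-fold; adjusted p = 0.0114). It had the largest measured fall of the tested members. The call was lost without pair 1 and without pair 2 (adjusted p = 0.0552 and 0.0502) and without the intensity trend (0.0679), over a range of 0.00329 to 0.0679 across 15 alternatives.

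Tgfb2 and Tgfb3 encode the other two TGF-beta isoforms beside Tgfb1. Tgfb3 stood at 9.58, 9.46, 9.34 and 9.13 in untreated and at 8.21, 7.75, 7.02 and 7.40 in the inflamed samples. The groups were apart by more than their spread, and Tgfb3 fell by 1.78 ± 0.34 (SE; 3.44-fold; adjusted p = 0.0140). Tgfb2 was 9.09, 9.53, 9.55 and 9.68 in untreated and 8.85, 7.19, 7.50 and 6.36 in the inflamed samples. The groups did not overlap, and Tgfb2 fell by 1.99 ± 0.48 (SE; 3.96-fold; adjusted p = 0.0410). The fall was uneven: the inflamed sample of pair 1 differed from its untreated partner by -0.24, that of pair 4 by -3.31. Tgfb3 lost its call without pair 2 or pair 3 and without the intensity trend (adjusted p up to 0.0910, from 0.00592 over 15 alternatives). Tgfb2 lost it without pair 2, 3 or 4, on median centring and with the trend left out (adjusted p up to 0.163, from 0.0192). Tgfb1 itself, at 5.35 ± 0.98 in untreated and 5.97 ± 0.51 in the inflamed samples (SD, n = 4), did not pass (adjusted p = 0.679), and its change had a 95% interval of -1.0 to 2.23.

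**Figure D2:**
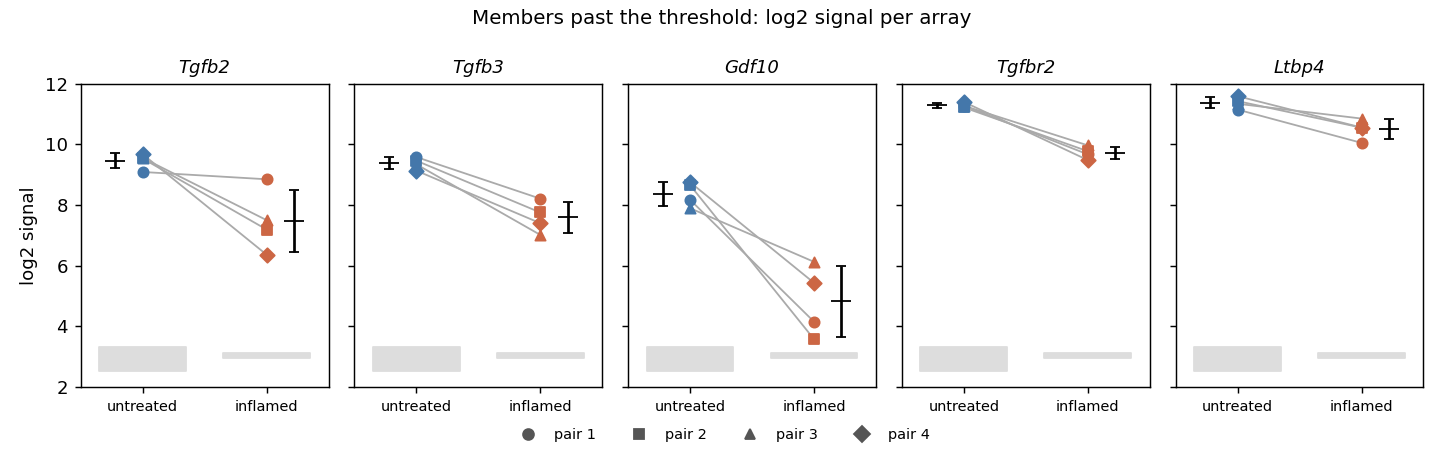
Log2 signal of the 5 members past the threshold on each array, with a symbol for each pair joined by a line, the group mean ± SD (n = 4) beside the points and the range of the background level shaded. In each of the 5 genes all inflamed samples lie below all untreated samples.

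The 3 activin and BMP ligands with the largest positive differences did not pass. Inhba, the subunit of activin A, was 7.81, 0.43, 2.45 and 1.04 in untreated samples, above background in the first only, and 7.84, 6.39, 5.88 and 6.82 in the inflamed samples. The inflamed samples lay between 5.88 and 7.84, and untreated sample 1 was as high as its inflamed partner. The difference was 3.80 ± 1.03 (SE; adjusted p = 0.0595), and 2.53 with values under the background level raised to it (adjusted p = 0.0714). Over 14 alternatives it ranged from 1.80 to 5.06 (adjusted p 0.0337 to 0.195), 3 of which passed: without pair 1, median centring and cyclic loess normalization. Inhba was kept by the filter only through its inflamed values, and with 3 of 4 untreated arrays not above background the size of its difference, and the passes, depend on how such values are treated. Bmp2 was 6.74, -0.33, 3.07 and 5.03 in untreated and 9.32, 8.83, 6.22 and 6.52 in the inflamed samples, a difference of 4.10 ± 1.14 (adjusted p = 0.0658). It was higher in all 4 pairs, as were 13.6% of all tested genes, and above background on 2 of 4 untreated and 4 of 4 inflamed arrays. Bmp2 passed in 4 of 14 alternatives, among them the pseudocount of 16 and a floor at the background level, where its change was 2.57 and 3.36.

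Inhbb, the subunit of activin B, was 6.82, 2.50, 2.36 and 4.89 in untreated and 7.73, 6.81, 5.26 and 6.34 in the inflamed samples. It was higher in all 4 pairs, but the groups overlapped and the difference of 2.39 ± 0.75 did not pass (SE; adjusted p = 0.0988). Untreated sample 1 had the highest untreated value of Inhba, Bmp2 and Inhbb alike. The summed fibroblast markers were also highest there among untreated samples, at 19657, and in each pair they were higher in the inflamed sample. Untreated sample 4 came next, at 15274.5, with Inhba at 1.04, Bmp2 at 5.03 and Inhbb at 4.89. The summed signal of 8 pericyte and smooth muscle markers was 2218.5, 362, 217 and 664 in untreated samples 1 to 4, and higher in the inflamed sample in 2 of 4 pairs. The part of these sums in the 3 ligands was not tested. Bmp6 was 7.20 ± 0.41 in untreated and 4.79 ± 2.02 in the inflamed samples (SD, n = 4). Its groups did not overlap, with 3 of 4 inflamed arrays above background, and it did not pass (adjusted p = 0.105).

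Bmp4, at 7.48 ± 0.88 in untreated and 7.99 ± 0.98 in the inflamed samples, and Bmp7, at 4.31 ± 1.73 and 3.73 ± 1.04, did not pass (SD, n = 4; adjusted p = 0.621 and 0.789). Bmp5 differed more between pairs than between conditions. It was 10.01, 7.01, 6.73 and 9.14 in untreated and 9.18, 7.43, 6.69 and 8.81 in the inflamed samples 1 to 4. The summed signal of 8 chondrocyte markers, genes of ear cartilage, was 7736, 2881, 2010 and 7749 in untreated and 7422, 2182, 1380 and 7420 in the inflamed samples. Both were highest in pairs 1 and 4 and lowest in pair 3, and their relation was not tested. The chondrocyte sum was lower in the inflamed sample in 4 of 4 pairs, Bmp5 in 3 of 4. The change of Bmp5 was -0.19 (95% interval -1.05 to 0.66), and its sign turned under median centring and without pair 1.

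Of the 11 tested receptors, Tgfbr2 was lower and 0 were higher in limma, and no other receptor reached an unadjusted p under 0.05. That is 9.09% called, near the 6.94% of all genes, of which 22% had an unadjusted p under 0.05. Tgfbr2 encodes the type II receptor that binds TGF-beta and is shared by its 3 isoforms. Its signal was 11.27, 11.22, 11.27 and 11.40 in untreated and 9.67, 9.77, 9.97 and 9.48 in the inflamed samples. Spread within each group was small (SD 0.08 and 0.20, n = 4) beside the gap between them, and Tgfbr2 fell by 1.57 ± 0.19 (SE; 2.96-fold; adjusted p = 0.00164). The call held in 14 of 15 alternatives, all but the fit without the intensity trend (adjusted p = 0.107; lowest 3.85e-04). A second tested probe set of Tgfbr2 fell by 2.61 ± 0.54 (adjusted p = 0.0217 with each probe set tested by itself), and the remaining one was above background on no array.

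The partner chain Tgfbr1, the type I receptor for TGF-beta, was 7.88 ± 0.67 in untreated and 7.65 ± 0.29 in the inflamed samples (SD, n = 4; adjusted p = 0.833). Its change of -0.23 had a 95% interval of -1.28 to 0.82, an interval that does not reach the change of Tgfbr2, -1.57; the difference between both genes was not tested. All 3 probe sets of Tgfbr1 gave differences between -0.18 and -0.23. Tgfbr3, or betaglycan, a co-receptor that presents TGF-beta2, was 10.60, 10.33, 10.12 and 9.98 in untreated and 9.81, 10.10, 9.89 and 10.20 in the inflamed samples, overlapping (adjusted p = 0.570). Eng, or endoglin, an endothelial co-receptor, and Acvrl1, the BMP9 receptor also called ALK1, differed by 0.06 (95% interval -1.03 to 1.15) and -0.33 (-1.60 to 0.93). Neither passed, and the sign of each turned in at least 1 alternative.

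The BMP and activin receptors did not pass either. Bmpr1a, a type I BMP receptor, was 8.72, 3.75, 7.18 and 6.82 in untreated and 9.18, 6.09, 6.46 and 8.40 in the inflamed samples, with the lowest value in untreated sample 2 (adjusted p = 0.416). Its 4 tested probe sets differed by 0.65 to 0.92. Acvr2b, a type II activin receptor, was 3.25, 5.88, 6.04 and 4.03 in untreated and 2.64, 2.06, 1.66 and 5.97 in the inflamed samples, above background on 4 of 4 and 1 of 4 arrays. Inflamed sample 4 was as high as the highest untreated samples, and the change of -1.72 ± 1.11 did not pass (SE; adjusted p = 0.417). For Bmpr2, a type II BMP receptor, and the activin and BMP receptors Acvr1, Acvr1b and Acvr2a the change lay between -0.37 and 0.23, with adjusted p-values of 0.602 to 0.831. These are the brightest probe sets, and the 2 tested ones of Acvr1b disagreed in direction, at -0.35 and 1.12. Bmpr1b was left out by the filter, at 3.33 ± 1.89 and 2.92 ± 0.51 (SD, n = 4), above background on 3 of 4 untreated and 2 of 4 inflamed arrays.

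Of the 4 tested antagonists, 0 were higher or lower in limma. At an unadjusted p under 0.05, 2 were higher and 0 lower, beside 22% of all genes. Grem1 was kept by the filter only through its inflamed values and Nog was left out, so no summary over these genes is given. Bmper, a secreted protein that binds BMPs, was 6.35, -0.41, 2.87 and 5.84 in untreated and 8.14, 6.80, 6.75 and 7.07 in the inflamed samples. Each inflamed sample lay above every untreated one, with 2 of 4 untreated arrays above background, and the difference of 3.53 ± 0.98 missed the threshold (SE; adjusted p = 0.0654). Over 14 alternatives, 4 of which passed, it ranged from 2.00 to 4.29 (adjusted p 0.0370 to 0.188). Fst, or follistatin, which binds activin, was 1.53, 3.55, 4.67 and 3.85 in untreated and 6.65, 5.57, 6.77 and 5.03 in the inflamed samples. Its groups did not overlap either, and its 2 probe sets differed by 2.61 and 2.34, with an adjusted p of 0.101 for the first, whose difference ranged from 1.52 to 3.08 over 14 alternatives. Grem1, or gremlin, a BMP antagonist, was 2.59, 3.70, 1.15 and 2.40 in untreated and 5.81, 2.04, 5.87 and 5.70 in the inflamed samples. It was above background in the inflamed samples 1, 3 and 4 but not in 2, and it did not pass (adjusted p = 0.236; difference 1.22 to 3.75 over 14 alternatives).

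The fibroblast markers Pdgfra and Lum are given here after their values were seen. They stood at 6.12 ± 1.03 and 8.69 ± 1.21 in untreated and 7.68 ± 1.17 and 10.18 ± 0.80 in the inflamed samples (SD, n = 4). All 9 tested fibroblast markers had changes above 0. Those of the brighter Col1a1, Col1a2 and Col3a1 were only 0.18, 0.24 and 0.29, and these genes were not called. The part of fibroblast RNA in the antagonist values was not tested. Bambi, a pseudoreceptor that dampens the signal, was 7.32 ± 0.84 in untreated and 6.31 ± 1.35 in the inflamed samples, lower in all 4 pairs (SD, n = 4; adjusted p = 0.295). Nog, or noggin, was left out as dim, with 1 of 4 untreated and 0 of 4 inflamed arrays above background.

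**Figure D3:**
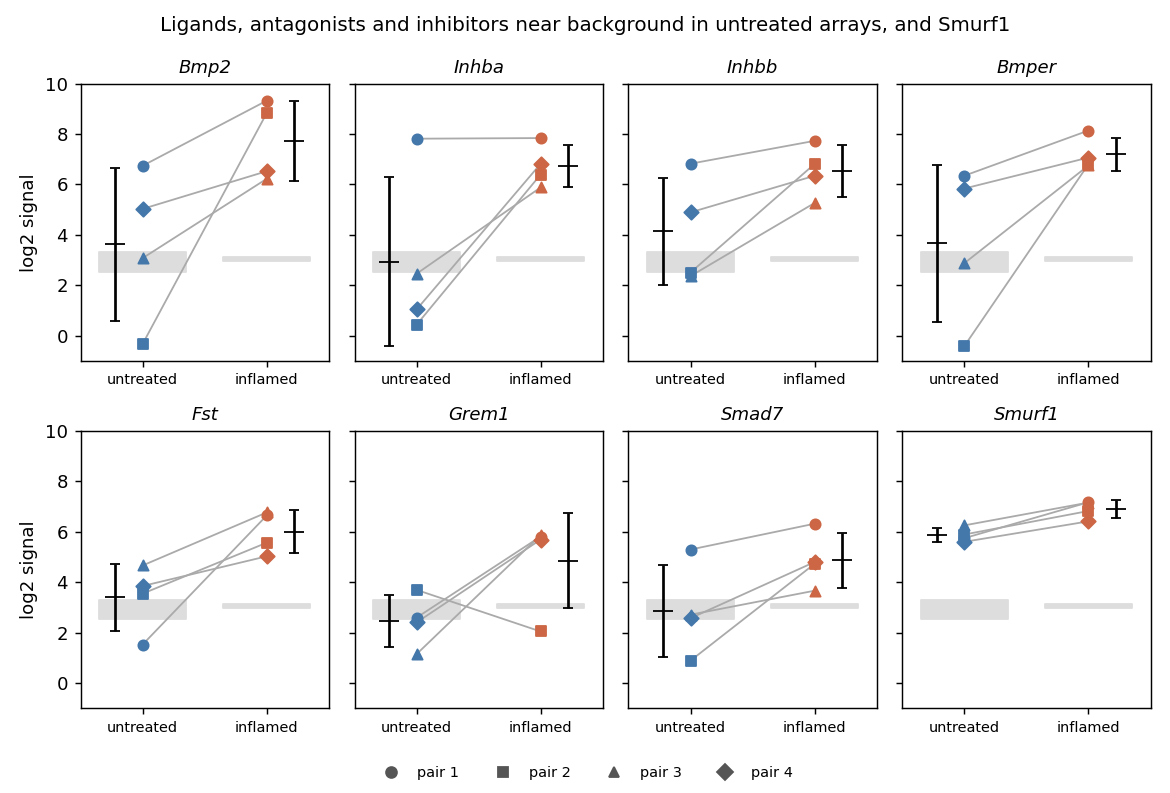
Log2 signal per array of 7 of the 9 tested members that were not above background on every untreated array, and of Smurf1. They are drawn as pairs with the group mean ± SD (n = 4) and the shaded range of the background level. The other members, Bmp7 and Ltbp2, are not drawn, and their changes were below 0, at -0.58 and -0.79. For Bmp2, Inhba, Inhbb, Bmper and Smad7 the untreated samples spread widely while the inflamed samples are all above background; Smurf1 is above it on all 8 arrays.

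Of the 5 tested genes of latency and processing, 1 was lower and 0 higher in limma, beside 6.94% of all genes called. All 5 had changes below 0, as did 5831 of all 10843 tested genes. The range of the 5 was -1.20 to -0.18, and after median centring the change of Ltbp3 was 0.12. Ltbp4 encodes a matrix protein that binds latent TGF-beta1. It was 11.15, 11.42, 11.34 and 11.59 in untreated and 10.05, 10.55, 10.85 and 10.55 in the inflamed samples. The groups did not overlap, and Ltbp4 fell by 0.87 ± 0.17 (SE; 1.83-fold; adjusted p = 0.0149). The call was lost without pair 1 or pair 2, on median centring and with the trend left out (adjusted p 0.00387 to 0.256 over 15 alternatives).

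Ltbp1 was 9.48, 9.60, 8.96 and 8.37 in untreated and 8.53, 8.62, 9.12 and 7.63 in the inflamed samples, and did not pass (adjusted p = 0.308). Ltbp2 was 5.63, 5.11, 2.66 and 4.24 in untreated and 4.63, 4.56, 3.14 and 2.14 in the inflamed samples (adjusted p = 0.612). Both were lower in 3 of 4 pairs, with overlapping groups. Bmp1, which despite its name is a protease that cuts procollagens and the BMP antagonist chordin, was 4.03, 7.67, 7.64 and 4.22 in untreated and 4.30, 5.94, 3.84 and 4.70 in the inflamed samples (adjusted p = 0.460). Only pairs 2 and 3 were lower in the inflamed sample. Ltbp3 gave unlike results by probe set: the brighter one differed by -0.18 ± 0.21 and the other tested one by -1.18 ± 0.32 (SE; adjusted p = 0.687 and 0.0611 with each probe set tested by itself).

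None of the 6 tested Smads was called in limma. At an unadjusted p under 0.05, 1 was higher and 2 lower, beside 22% of all genes. The 1 higher was Smad7, kept by the filter only through its inflamed values. Smad2, a transducer of TGF-beta and activin, was 8.88, 8.49, 8.21 and 8.21 in untreated and 7.39, 6.64, 6.57 and 7.50 in the inflamed samples. The groups did not overlap, and the change of -1.42 ± 0.41 (SE; adjusted p = 0.0746) passed only with the pair as a random block (adjusted p = 0.0400; up to 0.209 over 15 alternatives). The second probe set of Smad2 differed by -1.55 ± 0.57. Smad1, a transducer of BMP, was 12.04, 12.26, 11.99 and 11.92 in untreated and 11.56, 11.55, 12.01 and 11.41 in the inflamed samples. Inflamed sample 3 was within the untreated range, the change was -0.42 ± 0.14 (SE; adjusted p = 0.115), and Smad1 passed under quantile and cyclic loess normalization (adjusted p = 0.0113 and 0.0111; up to 0.741 over 15 alternatives). The 3 tested probe sets of Smad1 differed by -1.61 to -0.42.

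Smad7, an inhibitory Smad that is itself a target of TGF-beta, was 5.30, 0.89, 2.71 and 2.57 in untreated and 6.32, 4.73, 3.66 and 4.80 in the inflamed samples. It was higher in all 4 pairs and above background on 1 of 4 untreated and 4 of 4 inflamed arrays, but its groups overlapped and it did not pass (adjusted p = 0.190). It too was kept by the filter only through its inflamed values, and its difference of 2.01 was 0.85 to 2.37 over 14 alternatives. Smad3, Smad4 and Smad5 differed by 0.18, -0.22 and -0.28, with 95% intervals of -0.76 to 1.12, -0.75 to 0.32 and -0.91 to 0.35. The sign of Smad4 and Smad5 turned under median centring, and that of Smad3 without pair 1. Smad6, the other inhibitory Smad, and Smad9 were left out as dim. Smad6 was above background on 1 of 4 untreated and 0 of 4 inflamed arrays, and Smad9 on 1 and 2.

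The Smurf ubiquitin ligases, which mark Smads and receptors for breakdown, were not called, with 0 at an unadjusted p under 0.05 in limma. Smurf1 was 5.75, 5.89, 6.26 and 5.60 in untreated and 7.17, 6.83, 7.16 and 6.42 in the inflamed samples. Its groups did not overlap, and both probe sets were higher in all 4 pairs, by 1.02 ± 0.53 and 2.03 ± 0.73 (SE; adjusted p = 0.317 and 0.146 with each probe set tested by itself). Smurf2 was 8.63, 9.93, 9.30 and 9.16 in untreated and 7.83, 9.39, 8.95 and 8.96 in the inflamed samples. Its pair differences were -0.80, -0.53, -0.34 and -0.20, and it did not pass (adjusted p = 0.384).

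**Figure D4:**
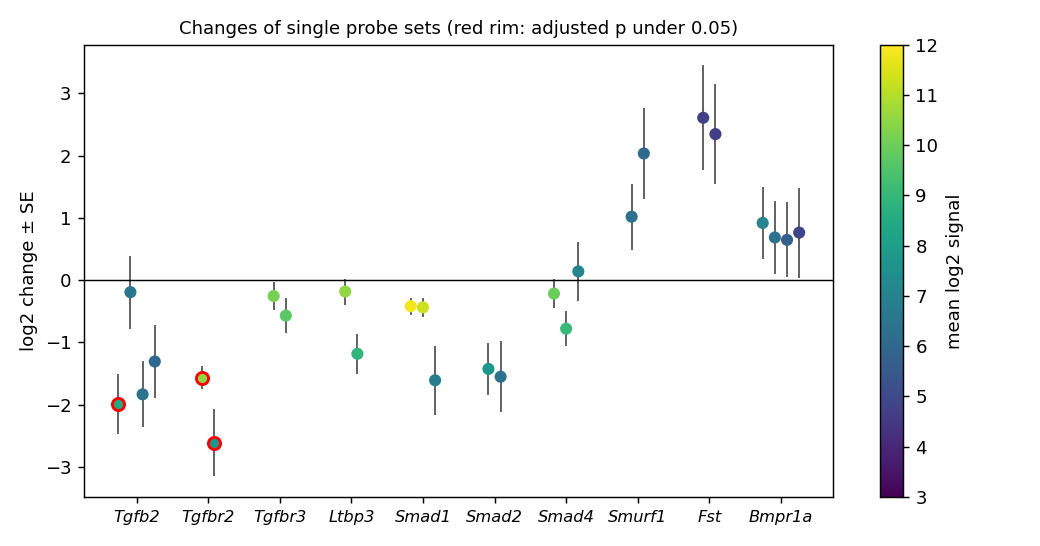
Log2 change ± SE (n = 4 pairs) of every tested probe set of 10 members, coloured by mean log2 signal, with red rims at an adjusted p under 0.05. Both tested probe sets of Tgfbr2 are called, 1 of 4 of Tgfb2 is called, and those of Ltbp3 and Smad1 lie apart.

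Where several probe sets of a member were tested, they often but not always pointed one way. Of 26 such members, 18 had all changes in 1 direction and 8 had both. The 8 were Tgfb1, Bmp7, Eng, Acvr1, Acvr1b, Smad3, Smad4 and Id2. For Tgfb2, 3 of 4 probe sets differed by -1.99, -1.83 and -1.31, while the fourth, at 6.64 in untreated and 6.44 in the inflamed samples, differed by -0.19 ± 0.59 (SE). Only the first passed when each probe set was tested by itself (adjusted p = 0.0395).

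The 4 Id genes encode inhibitors of basic helix-loop-helix factors and are direct targets of BMP. Of these, 0 were called in limma. At an unadjusted p under 0.05, 1 was higher and 0 lower, beside 22% of all genes. Id1 was 6.94, 6.83, 6.01 and 7.06 in untreated and 6.0, 5.13, 5.89 and 5.87 in the inflamed samples. Every inflamed value was below every untreated one, with the closest values, 6.01 and 6.0, in untreated sample 3 and inflamed sample 1, and the change of -0.99 ± 0.57 did not pass (SE; adjusted p = 0.358). Id3 was 8.87, 9.04, 8.53 and 9.33 in untreated and 8.68, 8.79, 8.49 and 8.49 in the inflamed samples (adjusted p = 0.591). It was lower in 4 of 4 pairs, as was Id1, but its groups overlapped. Of all tested genes, 15.5% were lower in all 4 pairs.

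Id4 varied widely between pairs, at 11.13, 6.18, 6.81 and 8.79 in untreated and 11.10, 9.82, 7.14 and 10.17 in the inflamed samples. Its difference of 1.33 ± 0.55 (SE; adjusted p = 0.195) came mainly from pair 2, with 3.64, beside -0.04, 0.33 and 1.38 in pairs 1, 3 and 4. Among untreated samples Id4 and the chondrocyte sum were both highest in samples 1 and 4, whereas inflamed sample 2 had an Id4 of 9.82 and a chondrocyte sum of 2182. Their relation was not tested. Id2, at 7.08 ± 0.53 and 7.01 ± 0.49 (SD, n = 4), differed by -0.07 with a 95% interval of -1.15 to 1.01, and its sign turned under median centring and cyclic loess normalization.

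**Figure D5:**
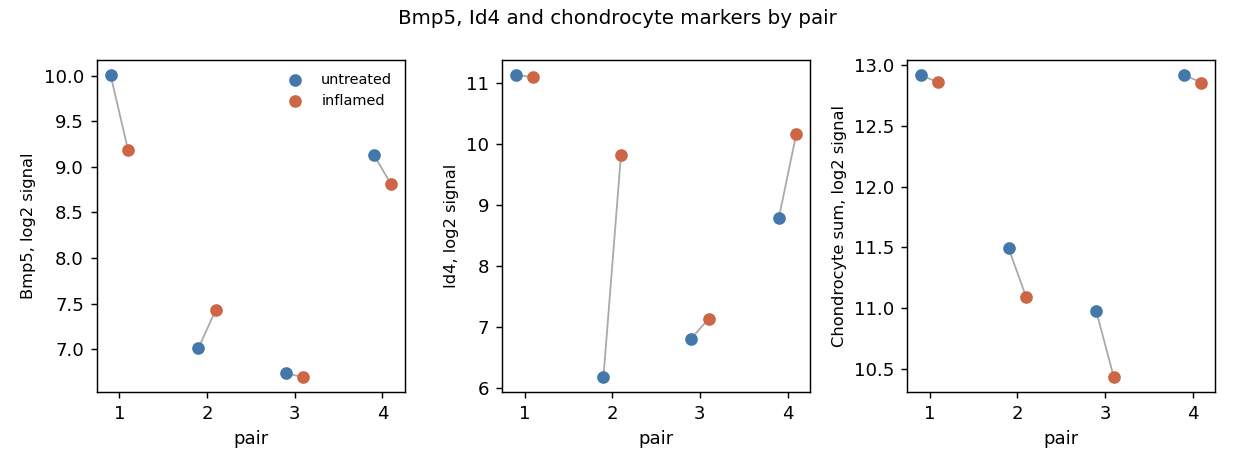
Log2 signal of Bmp5 and of Id4 and log2 of the summed signal of 8 chondrocyte markers, by pair, with untreated and inflamed samples joined by a line. Bmp5 and the chondrocyte markers are highest in pairs 1 and 4; Id4 is also high in inflamed sample 2.

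Because the 5 called members were lower together, the promoters of those with a RefSeq window are shown with their Smad-binding letters. Windows existed for 4 of the 5 and for 35 of the 48 genes on the list. Each sequence is the 250 bases before a transcription start, 5′ to 3′ on the gene's strand, from RefSeq on build GRCm38.p6. Positions are Tgfb2 chr1:186705990-186706239 (minus strand), Gdf10 chr14:33923337-33923586 (plus strand), Tgfbr2 chr9:116175364-116175613 (minus strand), Ltbp4 chr7:27337613-27337862 (minus strand). For Ltbp4, the most 5′ of the 3 starts in the table is used. The windows of Ltbp4 and Tgfb2 lie inside the RefSeq gene spans, whose 5′ ends are at 27339720 and 186709697, so neither is the most 5′ start of its gene. Capitals mark CAGAC, the Smad-binding box.
Tgfb2: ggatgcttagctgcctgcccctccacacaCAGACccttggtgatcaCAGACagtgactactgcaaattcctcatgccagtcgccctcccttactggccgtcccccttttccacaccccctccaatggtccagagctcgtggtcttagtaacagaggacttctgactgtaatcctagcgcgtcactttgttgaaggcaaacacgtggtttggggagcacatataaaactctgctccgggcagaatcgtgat
Gdf10: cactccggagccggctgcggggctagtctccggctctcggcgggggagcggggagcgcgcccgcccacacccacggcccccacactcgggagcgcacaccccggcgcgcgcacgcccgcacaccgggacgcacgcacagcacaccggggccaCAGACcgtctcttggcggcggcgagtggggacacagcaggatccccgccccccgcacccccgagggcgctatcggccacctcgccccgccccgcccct
Tgfbr2: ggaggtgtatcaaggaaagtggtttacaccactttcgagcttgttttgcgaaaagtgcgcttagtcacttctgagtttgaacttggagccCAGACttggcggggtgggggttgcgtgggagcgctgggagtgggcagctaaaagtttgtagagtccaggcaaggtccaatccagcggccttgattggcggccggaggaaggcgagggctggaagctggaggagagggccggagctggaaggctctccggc
Ltbp4: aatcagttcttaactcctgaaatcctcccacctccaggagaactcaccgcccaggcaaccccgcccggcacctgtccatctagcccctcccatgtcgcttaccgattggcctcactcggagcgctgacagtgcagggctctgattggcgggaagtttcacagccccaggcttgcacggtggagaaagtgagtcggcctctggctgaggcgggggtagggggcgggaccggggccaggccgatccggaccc

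The letters CAGAC, searched on both strands, occurred 2 times in the Tgfb2 window, with first bases 221 and 204 bases before the start, and 1 time each in those of Gdf10 and Tgfbr2, 98 and 160 bases before it. The Ltbp4 window held none. Of all 32851 windows of this length, 42.2% held CAGAC. The GC-rich letters GGCGCC, found in BMP-responsive promoters, were in 9.59% of all windows and in none of the 4, and the palindrome GTCTAGAC was in 0.167% and in none of the 4. Of the 44 windows of listed genes, 50% held CAGAC and 25% held GGCGCC. No motif contains another, and a match describes letters only.

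Beyond the list, 84 other genes of the pathway were measured, and 58 of them were tested. Of these 1 was higher and 3 lower, or 6.90% called, close to the 6.94% of all genes, and their median change was 0.08. The connective tissue growth factor gene Ccn2, a known target of TGF-beta, was 11.71, 10.78, 10.95 and 11.61 in untreated and 12.31, 12.16, 12.05 and 12.25 in the inflamed samples, and rose by 0.93 ± 0.16 (SE; adjusted p = 0.00852). Tgfbi, a matrix protein gene named for its induction by TGF-beta, fell by 1.15 ± 0.24, from 10.93 ± 0.51 to 9.78 ± 0.57 (SD, n = 4; adjusted p = 0.0213). Hey1, a transcription factor gene that Notch and BMP signalling both induce, fell by 2.62 ± 0.47 (adjusted p = 0.0109), and Neo1, a co-receptor that binds repulsive guidance molecules, by 1.84 ± 0.44 (adjusted p = 0.0378).

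The groups of Ccn2 did not overlap, while those of Tgfbi, Hey1 and Neo1 did. Over 15 alternatives the call held in 13 for Ccn2, 12 for Hey1, 10 for Tgfbi and 8 for Neo1. All 4 lost it without pair 3 and without the intensity trend. Neo1 and Tgfbi also lost it without the pair block (adjusted p = 0.101 and 0.0620), on median centring and without pair 2. Hey1 and Neo1 lost it without pair 1, and Neo1 with the pair as a random block. By role, 3 of 13 other targets (1 higher and 2 lower) and 1 of 3 other receptors and co-receptors (lower) were called. At an unadjusted p under 0.05 these counts were 7 (2 higher and 5 lower) and 1 (lower). Over all tested genes, 6.94% were called and 22% had an unadjusted p under 0.05. In limma, 0 of 4 other ligands, 0 of 12 extracellular modulators, 0 of 5 genes listed around latent TGF-beta and 0 of 21 further regulators of Smads were called. At an unadjusted p under 0.05 these last 4 counts were 0, 3, 2 and 2. The 5 genes listed around latent TGF-beta were Thbs1, Itgav, Nrros, Fbn2 and Furin, a list wider than activators alone. All 5 had changes above 0, the smallest 0.09, as did 5012 of all 10843 tested genes. Thbs1 was 8.27 ± 1.29 in untreated and 10.1 ± 0.99 in the inflamed samples, higher in 3 of 4 pairs (SD, n = 4; adjusted p = 0.153). Furin, the protease that matures TGF-beta, was at 9.01 ± 0.25 and 9.80 ± 0.23 (adjusted p = 0.125). Both are named here after their values were seen.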

How the data were processed

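Lymphatic endothelial cell RNA of 4 untreated and 4 inflamed samples was amplified (SPIA, a linear isothermal method), labelled with biotin and hybridised, per the labels' protocols. The deposited table holds linear MAS5 signal intensities, 1 for each probe set of an array, per the submitters' processing notes. Version and scaling target: not given in the sources used. No pseudocount was added, and the authors' scaling was kept, since array medians differed by less than 0.5.

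Probe sets naming 1 gene with a mean log2 signal of at least 3.30, the median of all, were kept, and the brightest stood for its gene. Testing used limma 3.58.1 under R 4.3.3 (two-sided, intensity trend, pair as fixed block, Benjamini-Hochberg over 10843 genes, threshold 0.05), and the fit was tested on simulated data. Standard errors are the moderated ones. The list's members, roles, other lists and rules were chosen with earlier results of these data known. Values on every array are given for members past the threshold and for up to 3 further members with the smallest p in each role. Of the other pathway genes, up to 6 past the threshold in each direction were to be named.

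The series' design text gives the pairing (shared day of sort and extraction). Across genes, the correlation of paired deviations from their group's mean was 0.16, -0.0012, 0.08 and 0.03. Each sample pools 3 mice, p-values therefore describe pools, and the number of arrays limits the precision. Alternatives were other blocks, normalizations, filters and floors, single probe sets, and leaving out each pair.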

Additional observations from a re-analysis of the deposited data

Results flagged for a closer look

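Among 94 groups of 4 samples examined, 3 held a sample far from the others, where chance gives about 4.7. Grem1 in inflamed sample 2 was 2.04, below background, while the other inflamed samples lay between 5.70 and 5.87. Smad5 in inflamed sample 4 was 9.98, above the others at 9.27 to 9.35. Id1 in inflamed sample 2 was 5.13, below the others at 5.87 to 6.0.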

How the results depend on the processing

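Of 692 values of single genes under alternatives, 626 kept direction and side of the threshold, 33 lost a call, 14 gained one and 19 changed sign, none of the latter among members past the threshold. Without the replicate block, 384 genes were higher and 301 lower, against 424 and 328, and 0 members higher and 5 lower, the same 5; with the pair as a random block 6 members were lower. The block changed no member's call but that of Smad2, and among other pathway genes it changed those of Neo1, Tgfbi and Ski (called without a fixed block). Under median centring, 719 genes were higher (76.0% of calls against 56.4%), members were 3 higher and 3 lower, and other pathway genes 3 higher and 1 lower. Cyclic loess, the pseudocount of 16 and the floor at background each gave 2 members higher. Testing every probe set gave 3 other pathway genes higher. Without the intensity trend, 94 genes were higher and 47 lower, 0 members lower, and 0 other pathway genes higher and 0 lower (14 members and 11 others at an unadjusted p under 0.05 in limma). Leaving out each pair gave 208 to 306 genes higher and 126 to 198 lower, 0 to 1 members higher and 1 to 4 lower, and 0 to 2 and 0 to 3 other pathway genes. Signs turned under median centring for Bmp5 (0.11), Tgfbr1 (0.074), Tgfbr3 (0.048), Ltbp3 (0.12), Smad4 (0.088), Smad5 (0.027) and Id2 (0.23), and under cyclic loess for Id2 (0.014). Across left-out pairs the change ranged from -0.079 to 1.01 for Tgfb1, -0.40 to 0.019 for Bmp5, -1.67 to 0.13 for Bmp7, -0.58 to 0.052 for Tgfbr1, -0.81 to 0.042 for Acvrl1, -0.054 to 0.33 for Smad3, -0.24 to 0.19 for Id2, -0.69 to 0.038 for Acvr2a and -0.28 to 0.55 for Eng. The cause was not tested. Signals near background limit Bmp2, Inhba, Inhbb, Fst, Bmper, Grem1 and Smad7. They also limit Bmp6, Bmp7, Acvr2b and Ltbp2, whose changes were below 0. Values under the background level have no order among themselves.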
